A study of Danio rerio with 21 samples.

Results

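The comparison described here sets haemogenic endothelium (HE) against aortic roof endothelium (ARE) of the zebrafish embryo, and asks which genes outside the usual vessel and blood markers differ between these neighbouring cell populations. Its members are all 2732 genes listed for this comparison in the deposited table, measured in 6 of the 21 samples of the series. The embryos carried TgBAC(runx1P2:Citrine), a reporter of the runx1 P2 promoter, and Tg(kdrl:mCherry), a reporter of the endothelial gene kdrl, and were not injected. Cells of whole embryos at 28 to 30 hours post fertilisation (hpf) were sorted as mCherry-positive with high Citrine (DP-R1hi, HE, 3 libraries) or with low Citrine (DP-R1lo, ARE, 3 libraries), with a minimum of 3000 cells and 2.2 ng of RNA with an integrity number above 8 per library. The study counts the inter-somitic vessels that sprout from the aorta, where weak Citrine was also seen, as part of ARE. Dead cells and doublets were removed first, and the high gate was placed where haemogenic marker genes were most enriched. The gates were drawn on the colours of both reporters, so a gate may hold any cell of the embryo that carries both colours, and embryos were pooled before sorting. In bulk samples, fewer cells of a type and less RNA per cell cannot be told apart.

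Haemogenic endothelium lies in the floor of the dorsal aorta. Its cells leave the vessel wall, round up and found the first definitive blood stem cells, whereas cells of the aortic roof stay in the vessel. The change from a flat, polarised wall cell to a free blood progenitor involves the loss of junctions, of matrix contacts and of cues that guide vessels. Blood formation also takes ribosome and protein synthesis, whose rates were not measured here.

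The values are in CPM, read counts scaled to the size of each library, and a difference is the mean log2(CPM + 1) of HE minus that of ARE, given with its standard error (SE) from limma and a Benjamini-Hochberg adjusted p over all listed genes. The listed genes are those called different by the authors on these same libraries at a false discovery rate under 0.05. A pass is therefore a description and not independent evidence, and a gene that is missing says nothing about its level. Of the 2732 genes, 2725 (99.7%) passed at an adjusted p under 0.05, 1098 (40.2%) of them higher and 1627 (59.6%) lower in HE. The counts of members below are to be read against these shares. The values of HE and ARE libraries did not overlap for 2681 genes (98.1%). Differences ran from −6.34 to 5.05, with a median of −1.0. Genes called higher differed by a median of 0.97 and genes called lower by a median of −1.70, so on this scale the falls were the deeper ones. The size of this contrast depends on the scaling. After the median-ratio rescaling described below, the median over all listed genes was −0.21. A difference below −3 was seen for 257 genes and one above 3 for 12. Effective library sizes, estimated by setting the step between values equal to 1 read, were 16.2 to 19.3 M reads in HE and 13.8 to 16.6 M in ARE. Median-ratio scale factors of HE lay below those of ARE by a mean of −0.86 on the log2 scale, and upper-quartile factors by −0.23. Both kinds of factor rest on the listed genes alone, most of which were lower in HE, so rescaled values depend on how the list was made. After median-ratio rescaling 1234 differences were positive, compared with 1099 before, and 1102 genes were called higher and 998 lower. Many lists gained positive members in this way, and the text names each list median that turned.

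Markers of the labelled populations come first. They are no independent check of the labels, since the haemogenic list includes genes that the study picked from these libraries, the high gate was placed by such markers and the table holds called genes only. All 20 listed genes of the haemogenic programme were higher in HE, and their summed level was 3405 to 3653 CPM in HE against 917 to 1102 in ARE. All 18 listed endothelial markers were lower in HE, with sums of 194 to 417 CPM against 2122 to 4217. The gate gene kdrl itself stood at 11.2, 7.69 and 26.1 CPM in HE and 78.7, 102 and 194 CPM in ARE. Every library of both groups had reads of it, and the HE values were lower in all 3. ARE library 3 and HE library 3 had the highest endothelial sums of their groups.

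Markers of several other tissues were higher in ARE. Macrophage markers were lower in HE for 12 of 12 listed genes, with sums of 512 to 604 CPM in HE and 2988 to 3694 in ARE. Of the epidermis and periderm list 19 of 19 were lower, at 203 to 461 CPM against 2576 to 5261, and ARE library 2 was the lowest of its group. The mesenchyme list, which holds collagen and sclerotome genes, was lower for 12 of 12, at 55.4 to 90.2 CPM against 1585 to 1916. Neural markers were lower for 19 of 20, the remaining gene missing the threshold, at 126 to 171 CPM against 441 to 622. Pronephros, gut and liver markers were lower for 7 of 7, at 65.5 to 109 CPM against 1236 to 1926. Primitive erythrocyte markers ran the other way, with 3 of 3 higher in HE at 495 to 702 CPM against 273 to 406. So did mmp9, the only listed gene of the neutrophil and mast cell markers, at 478 to 567 CPM against 241 to 342. Muscle markers were divided, with 3 higher and 3 lower and sums of 34.1 to 50.1 CPM against 17.7 to 42.4. The part of these cell types in the results below was not tested.

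**Figure D1:**
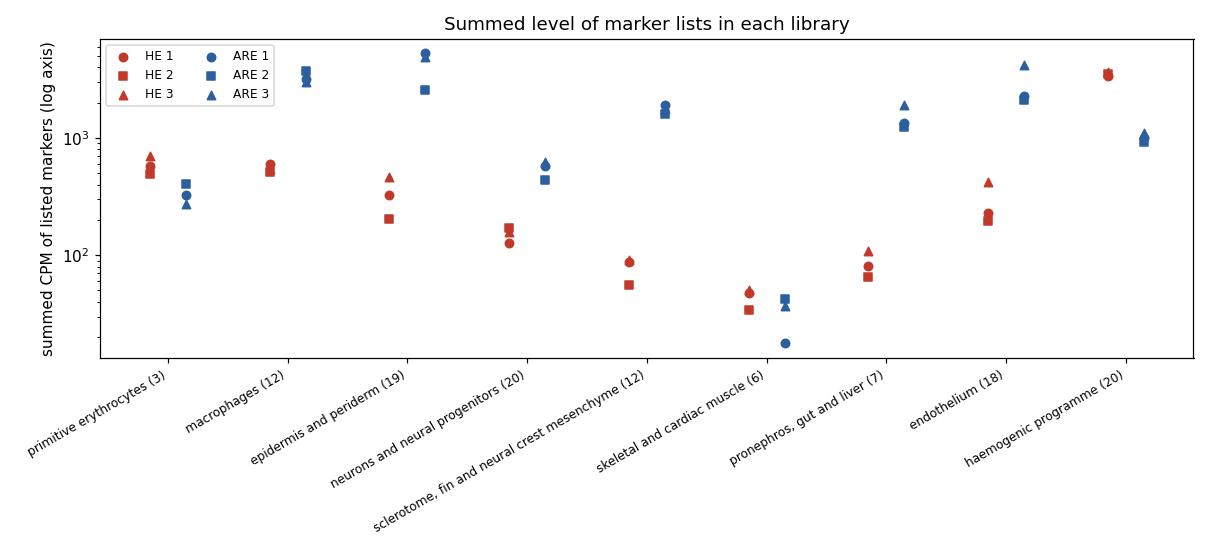
Summed CPM of the listed genes of each marker list in each library (log axis), with the number of listed genes in brackets, HE libraries in red and ARE libraries in blue, and the marker shape giving the replicate. Sums of macrophage, epidermis and mesenchyme markers in the 3 ARE libraries, at least 1585 CPM, all lay above those in the 3 HE libraries, at most 604 CPM, while the haemogenic list ran the other way.

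Among listed genes, the machinery that builds and reads RNA was mostly higher in HE, with splicing factors, given below, mixed. Members that were not listed have no value here. Of 43 listed enzymes that modify transfer RNA, 43 were higher and 0 lower, with a median difference of 1.15 against −1.0 over all listed genes. Their differences ran from 0.66 to 1.99, in a table of called genes that leaves out small differences. The enzymes range from the Elongator complex, which modifies the wobble base, to pseudouridine synthases and the enzymes of wybutosine, a bulky base beside the anticodon. elp2, an Elongator subunit, stood at 52.3, 65.5 and 60.9 CPM in HE and 8.87, 24.5 and 19.4 CPM in ARE (difference 1.81 ± 0.31 SE, limma adjusted p = 3.60e-04). The pseudouridine synthase gene pus3 was at 17.7, 26 and 31.5 CPM in HE and 5.53, 6.14 and 5.3 CPM in ARE (difference 1.94 ± 0.27 SE, limma adjusted p = 9.05e-05). Low ARE values were found for lcmt2, of the wybutosine pathway, at 5.56, 6.7 and 11.4 CPM in HE and 0.363, 1.02 and 2.65 CPM in ARE (difference 1.99 ± 0.42 SE, limma adjusted p = 0.00122).

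Genes for the enzymes that load transfer RNA were higher for 10 of 10 listed members (median 0.85). The largest difference fell on qrsl1, a subunit of the amidotransferase that completes glutaminyl-tRNA in mitochondria, at 35.9, 30.3 and 39.4 CPM in HE and 3.71, 6.44 and 8.82 CPM in ARE (difference 2.36 ± 0.29 SE, limma adjusted p = 4.34e-05). Its HE values were several times those of ARE in every library. The mitochondrial asparaginyl- and seryl-tRNA synthetase genes nars2 and sars2 followed at 1.56 and 1.07. Translation factors were higher for 21 of 23 (median 0.70). The helicase gene eif4a2, which unwinds the leader of messenger RNA, was at 78, 84.7 and 77.9 CPM in HE and 21, 18.5 and 20.9 CPM in ARE (difference 1.94 ± 0.16 SE, limma adjusted p = 4.22e-06). The enzymes dph5 and dph6, which make diphthamide, a modified histidine of elongation factor 2, differed by 1.35 and 1.19. The lower members were bzw2 (−1.51), an eIF5-like protein, and eif1b (−0.60), a start codon factor whose difference was 0.25 after median-ratio rescaling.

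Ribonucleoprotein assembly and RNA decay followed the same direction. The RNase P, telomerase and H/ACA list was higher for 19 of 19 (median 1.09). dkc1, which codes for dyskerin, the pseudouridine synthase of H/ACA particles and of telomerase, reached 636, 709.6 and 801 CPM in HE and 229, 257 and 303 CPM in ARE (difference 1.44 ± 0.14 SE, limma adjusted p = 7.04e-06). Its assembly factor gene shq1 was at 21.2, 28.1 and 33.7 CPM in HE and 4.8, 7.58 and 6.91 CPM in ARE (difference 1.94 ± 0.27 SE, limma adjusted p = 8.69e-05), and pop5, an RNase P subunit gene, differed by 1.60. The RNA exosome and decay list was higher for 16 of 16 (median 0.96), led by the exosome core gene exosc4 at 188, 157 and 179 CPM in HE and 57.2, 79 and 58.4 CPM in ARE (difference 1.43 ± 0.16 SE, limma adjusted p = 2.31e-05). Of 12 listed DEAD-box and DEAH-box helicase genes, enzymes that remodel RNA, 12 were higher (median 1.22), among them ddx56 (1.64) and ddx49 (1.4). This list was added after the symbols were seen and shares eif4a2 with the translation factors.

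Transcription and transport genes also stood higher in HE. RNA polymerase II and III subunits, general factors and Mediator were higher for 24 of 24 (median 1.02). The polymerase III side carried the largest differences, which makes transfer RNA and other short RNAs. Its subunit gene polr3gla was at 11.5, 11.2 and 16.1 CPM in HE and 2.69, 2.89 and 1.97 CPM in ARE (difference 1.98 ± 0.29 SE, limma adjusted p = 1.19e-04), and polr3e was at 128, 136 and 136 CPM in HE and 54.6, 49.8 and 54 CPM in ARE (difference 1.32 ± 0.13 SE, limma adjusted p = 1.15e-05). The initiation factor gene brf1a differed by 1.32. Nuclear pore, importin and exportin genes were higher for 16 of 16 (median 0.85), with tnpo2, an import receptor gene, at 1.14. Genes that trim or acetylate the start of new proteins were higher for 9 of 10 (median 0.78), the exception being metap2a (−1.33), a methionine aminopeptidase.

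**Figure D2:**
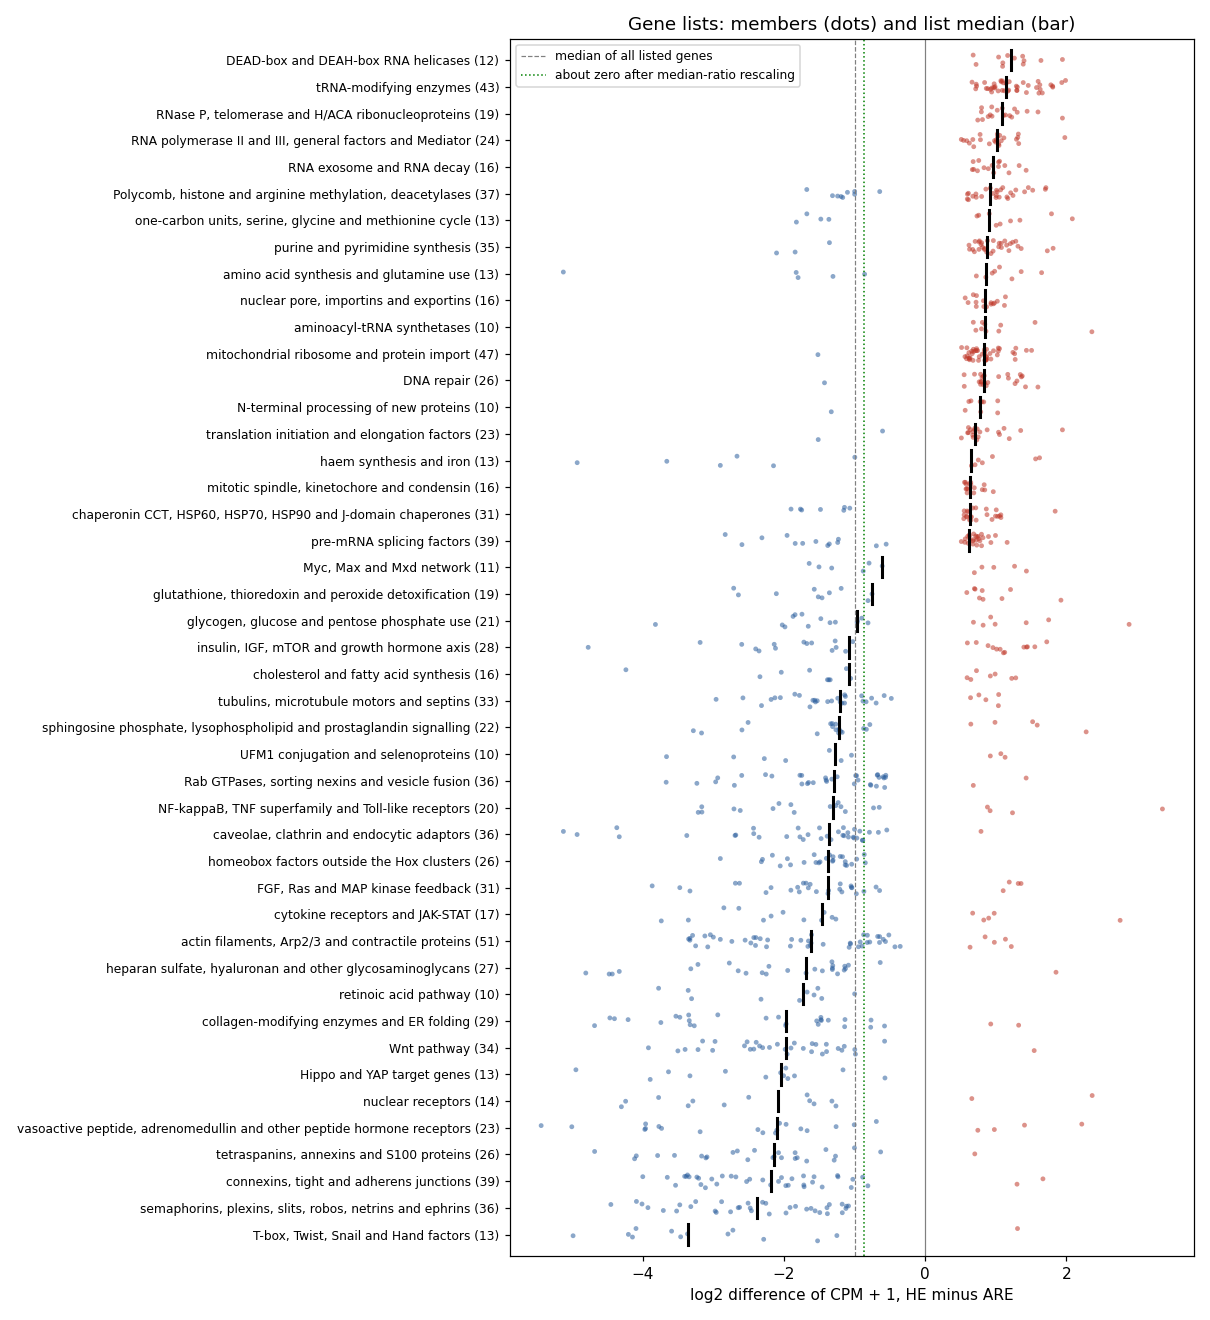
Log2 difference (HE minus ARE) of every member of 45 cell function lists with at least 10 listed genes, with members as dots, list medians as bars and list sizes in brackets. Lists of RNA and protein synthesis lie to the right of 0 and lists of signalling, cytoskeleton and matrix to the left, and the median of all listed genes is −1.0.

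Splicing factors and chaperones were mixed. In the splicing list 26 of 39 were higher (median 0.63), with differences of at most 1.16, among them gemin4 (1.16), which helps to assemble spliceosomal particles, and xab2 (1.0). The 13 lower members included the largest differences of the list. qki2, a regulator of alternative splicing known from glia and muscle, was at 2.35, 3.21 and 1.45 CPM in HE and 13.4, 22.8 and 35.1 CPM in ARE (difference −2.83 ± 0.37 SE, limma adjusted p = 6.10e-05), and nova2, a neural splicing factor gene, and mbnl2 differed by −2.59 and −2.31. Neural markers, at 126 to 171 CPM in HE against 441 to 622 in ARE, moved with these genes, and their part was not tested. nova2 is itself a member of the neural list. Chaperones were higher for 24 of 31 (median 0.64), led by hgh1 (1.84) and dnajc21 (1.07), a factor of ribosome maturation. The heat-inducible hsp90aa1.1 was lower at 10.7, 7.17 and 12.3 CPM in HE and 22.8, 32 and 82.9 CPM in ARE (difference −1.90 ± 0.41 SE, limma adjusted p = 0.00141), with ARE library 3 well above the others of its group.

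Genes of nucleotide synthesis, salvage and turnover were higher in HE for 32 of 35 listed members (median 0.88). Purines are built on ribose phosphate in a chain of steps, of which ppat makes the committed step, at 63.5, 73.6 and 54.7 CPM in HE and 19.2, 28.2 and 25.9 CPM in ARE (difference 1.36 ± 0.20 SE, limma adjusted p = 1.39e-04). gart, which catalyses several of the next steps, was at 69.5, 96.8 and 90.3 CPM in HE and 22.8, 20.6 and 27.3 CPM in ARE (difference 1.81 ± 0.19 SE, limma adjusted p = 1.44e-05), and pfas was at 18.9, 29 and 17.8 CPM in HE and 9.16, 4.21 and 4.81 CPM in ARE (difference 1.73 ± 0.32 SE, limma adjusted p = 5.68e-04). Values without overlap were a condition for naming these genes. On the pyrimidine side cad, which holds the first steps of the chain and was chosen after its values were seen, was at 150.2, 178 and 119.6 CPM in HE and 63.9, 71.8 and 61.8 CPM in ARE (difference 1.15 ± 0.17 SE, limma adjusted p = 1.15e-04). The 3 lower members were upb1 (−2.10), which breaks down pyrimidines, ada (−1.84), which deaminates adenosine, and ak4 (−1.35), a mitochondrial adenylate kinase. Genes that do not build nucleotides from small precursors were also among the higher members. Examples, named after their values were seen, are the salvage gene hprt1 (1.19) and the AMP deaminase gene ampd1 (1.28).

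One-carbon and amino acid genes split by pathway. In the one-carbon list 9 of 13 were higher (median 0.91), led by cbsa, which turns homocysteine to cystathionine, at 13.9, 14.4 and 15.8 CPM in HE and 1.45, 3.97 and 3.15 CPM in ARE (difference 2.08 ± 0.32 SE, limma adjusted p = 1.69e-04), and by sardh (1.79), which feeds methyl groups of sarcosine to folate. The enzymes that make serine from glucose were lower. phgdh, the entry enzyme, was at 21.1, 28.7 and 21.7 CPM in HE and 69, 77 and 88 CPM in ARE (difference −1.68 ± 0.19 SE, limma adjusted p = 2.12e-05), and psat1 was at 11.7, 15.6 and 22.6 CPM in HE and 57.2, 39.6 and 44.2 CPM in ARE (difference −1.48 ± 0.26 SE, limma adjusted p = 3.75e-04). The last enzyme of the path, psph, chosen after its values were seen, was at 33, 25.8 and 19.6 CPM in HE and 67.8, 56.8 and 79.1 CPM in ARE (difference −1.36 ± 0.22 SE, limma adjusted p = 2.31e-04). After median-ratio rescaling these 3 stayed negative, at −0.84, −0.66 and −0.53. The creatine enzyme gene gamt differed by −1.82. Amino acid synthesis was higher for 7 of 13 and lower for 5, with bcat1 (1.65), a branched-chain aminotransferase, at the upper end and glula (−5.12), a glutamine synthetase, at the lower. Polyamine and hypusine genes were split at 3 of 6 higher and 3 lower, with dohh (0.94) and eif5a2 (0.78), the hypusine enzyme and its substrate, among the higher and oaz2a (−1.66), a brake on polyamine synthesis, among the lower. The lower member smox (−0.67) turned to 0.16 after median-ratio rescaling.

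Haem and iron genes were divided. The list was split at 7 of 13 higher and 6 lower (median 0.66), with large differences on the lower side. hmox1a, the haem oxygenase that opens haem and frees its iron, was at 27.2, 15.4 and 45.6 CPM in HE and 807, 944 and 795 CPM in ARE (difference −4.93 ± 0.30 SE, limma adjusted p = 6.43e-07). slc40a1, which codes for the iron exporter ferroportin, was at 6.24, 5.42 and 6.27 CPM in HE and 65.1, 106 and 95.4 CPM in ARE (difference −3.66 ± 0.23 SE, limma adjusted p = 8.76e-07). The rate-limiting haem synthesis gene alas1 of non-erythroid cells was at 31.8, 26.6 and 10.2 CPM in HE and 91.2, 201 and 227 CPM in ARE (difference −2.90 ± 0.42 SE, limma adjusted p = 1.09e-04). The transferrin receptor gene tfr1b, which brings iron in, ran the other way at 79.3, 86.1 and 82.7 CPM in HE and 28.7, 22.3 and 31.7 CPM in ARE (difference 1.56 ± 0.18 SE, limma adjusted p = 2.31e-05), as did the ferritin gene fth1b at 20.3, 18.9 and 17.3 CPM in HE and 5.24, 6.2 and 4.93 CPM in ARE (difference 1.62 ± 0.24 SE, limma adjusted p = 1.43e-04). Macrophages also express hmox1a and slc40a1, and macrophage markers, 12 of 12 lower in HE at 512 to 604 CPM against 2988 to 3694, moved with them. Erythrocyte markers, 3 of 3 higher in HE at 495 to 702 CPM against 273 to 406, moved with the uptake genes. The part of either was not tested.

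Sugar genes fell on both sides. In the glycogen and glucose list 7 of 21 were higher and 14 lower (median −0.96), close to the shares over all listed genes. pygma, a glycogen phosphorylase, was at 43.1, 45 and 61.8 CPM in HE and 6.47, 7.83 and 3.76 CPM in ARE (difference 2.89 ± 0.28 SE, limma adjusted p = 8.71e-06), and ugp2a, which makes the UDP-glucose for glycogen, was at 21.2, 23.7 and 20.2 CPM in HE and 4.29, 6.26 and 6.97 CPM in ARE (difference 1.75 ± 0.26 SE, limma adjusted p = 1.26e-04). The glycogen synthase gene gys1, chosen after its values were seen, was at 25.4, 29 and 22.2 CPM in HE and 9.31, 18.5 and 10.6 CPM in ARE (difference 0.99 ± 0.28 SE, limma adjusted p = 0.00557). Its adjusted p was 0.051 with 25000 tests assumed, a setting that allows for unlisted genes. On the lower side stood gpd1a, glycerol phosphate dehydrogenase, at 0.309, 1.22 and 0.88 CPM in HE and 30.8, 23.8 and 18.6 CPM in ARE (difference −3.82 ± 0.32 SE, limma adjusted p = 4.38e-06), the galactokinase gene galk1 (−2.02) and pfkfb3 (−1.99), a driver of glycolysis in vessels.

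Detoxification and lipid synthesis showed no common direction. Glutathione and peroxide genes were higher for 9 of 19 and lower for 10, with sod2 (1.21), the mitochondrial superoxide dismutase, and gstcd (1.92) higher, and the secretory-path peroxidase gpx7 (−2.71) and gstt1b (−2.64) lower. The median of this list was −0.75 and 0.08 after median-ratio rescaling. Lipid synthesis was split at 7 of 16 higher and 9 lower. ch25h, the cholesterol 25-hydroxylase, had the largest difference, at 1.11, 0.583 and 1.45 CPM in HE and 39.8, 32 and 39.9 CPM in ARE (difference −4.24 ± 0.28 SE, limma adjusted p = 1.10e-06), and hacd3 (1.28), an enzyme of long fatty acids, was highest. In the list of fatty acid oxidation and citrate cycle genes 5 of 8 were higher, and the lower ones, dlat (−1.50), dlst (−1.21) and suclg1 (−0.69, but 0.16 after median-ratio rescaling), belong to pyruvate and citrate cycle enzymes.

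**Figure D3:**
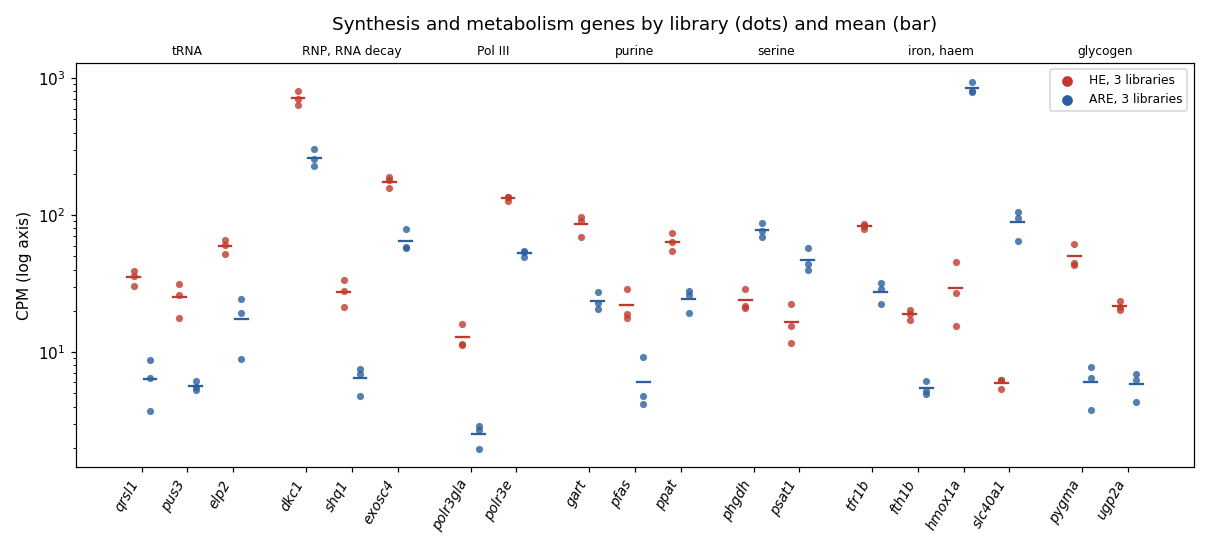
CPM (log axis) of synthesis and metabolism genes in each library (dots) with the group mean (bar), HE in red and ARE in blue. Values of the groups do not overlap for any gene drawn, which was a condition for naming these genes and holds for 98.1% of all listed genes. The serine enzymes, hmox1a and slc40a1 are lower in HE and all others higher, from 8.30-fold for pygma to 2.52-fold for polr3e.

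The list of mitochondrial ribosome and protein import genes, with other genes of mitochondrial gene expression, was higher for 46 of 47 listed members (median 0.84). Examples were the mitochondrial transcription and ribosomal RNA factors tfb1m, at 9.21, 12.5 and 13.7 CPM in HE and 2.69, 5.78 and 2.53 CPM in ARE (difference 1.51 ± 0.33 SE, limma adjusted p = 0.00158), and tfb2m (1.28), and the mitochondrial helicase gene peo1 (1.43). The exception was the ribosomal protein gene mrpl38 (−1.52). The smallest positive difference was that of the ribosomal protein gene mrpl36 (0.52), named after its value was seen.

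Chromatin, repair and mitosis genes were higher for most listed members. The chromatin list was higher for 28 of 37 (median 0.92). Arginine methyltransferases were among its leaders, with prmt3, which methylates a ribosomal protein, at 72.7, 76.8 and 77.3 CPM in HE and 23.3, 20.5 and 23.9 CPM in ARE (difference 1.70 ± 0.16 SE, limma adjusted p = 8.06e-06). The methyltransferase genes smyd3 (1.71) and setd6 (1.52) followed. Polycomb and chromobox genes were divided, with the Polycomb core gene suz12a, chosen after its values were seen, at 50.7, 70.0 and 73.7 CPM in HE and 26.6, 29.7 and 28.1 CPM in ARE (difference 1.16 ± 0.19 SE, limma adjusted p = 2.43e-04) and the chromobox genes cbx6a (−1.68) and cbx1b (−1.31) lower. DNA repair was higher for 25 of 26 (median 0.84), led by apex2 (1.60) and alkbh1 (1.42), the exception being babam1 (−1.43). Mitotic genes were higher for 16 of 16 (median 0.64), within a range of 0.56 to 0.96, and the proliferation gene mki67 was at 275, 402 and 303 CPM in HE and 185, 208 and 151 CPM in ARE (difference 0.84 ± 0.17 SE, limma adjusted p = 9.33e-04), with HE library 2 the highest of its group. Values of the groups did not overlap for 13 of these 16, against 98.1% of all listed genes. With 25000 tests assumed 8 of the 16 stayed called, where 896 of all 1098 higher genes did.

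The Myc network was divided. Of 11 listed members 5 were higher and 6 lower (median −0.61, but 0.20 after median-ratio rescaling). mycb was at 71.8, 73.6 and 94.6 CPM in HE and 23.5, 35.1 and 41.1 CPM in ARE (difference 1.27 ± 0.22 SE, limma adjusted p = 3.79e-04) and its copy myca at 8.22, 19.7 and 12.5 CPM in HE and 32, 33 and 35.1 CPM in ARE (difference −1.32 ± 0.29 SE, limma adjusted p = 0.00137). The rRNA-linked gene aatf (1.43) and the growth gene pa2g4a (0.97) were higher, and mxi1 (−1.50), a Myc antagonist, and the kinase gene pim3 (−1.64) lower.

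Guidance cue genes were lower in HE throughout their list. Of 36 listed semaphorins, plexins, slits, robos, netrins, ephrins and their receptors, 36 were lower (median −2.38), and 36 stayed negative after median-ratio rescaling. The repellent ligand gene slit3 was at 2.97, 1.11 and 5.7 CPM in HE and 70.2, 72.5 and 111 CPM in ARE (difference −4.45 ± 0.39 SE, limma adjusted p = 4.86e-06). The receptor gene ephb4a, of the venous Eph kinases, was at 0.927, 1.98 and 1.09 CPM in HE and 31, 32.2 and 54.6 CPM in ARE (difference −4.09 ± 0.32 SE, limma adjusted p = 2.65e-06), and the ligand gene efna1a was at 0.803, 2.39 and 1.19 CPM in HE and 34.5, 26.6 and 56.1 CPM in ARE (difference −4.01 ± 0.35 SE, limma adjusted p = 5.02e-06). HE values of these genes were at most 5.70 CPM, whereas no ARE library fell under 26.6 CPM. Endothelial and mesenchyme markers moved with this list, at 194 to 417 and 55.4 to 90.2 CPM in HE against 2122 to 4217 and 1585 to 1916 in ARE, and their part was not tested.

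Wnt pathway genes were lower for 33 of 34 (median −1.97). Wnt ligands are lipid-modified and need a carrier to leave the cell. That carrier gene, wls, was at 6.43, 7.11 and 7.15 CPM in HE and 88, 73.8 and 85.4 CPM in ARE (difference −3.40 ± 0.19 SE, limma adjusted p = 3.94e-07). The receptor gene fzd7a was at 3.95, 1.98 and 4.35 CPM in HE and 35.6, 60.6 and 120.0 CPM in ARE (difference −3.92 ± 0.41 SE, limma adjusted p = 1.33e-05), with a wide spread over ARE libraries. The secreted antagonist gene sfrp5 differed by −3.50. Ligand export, receptors, antagonists and the transcription partners of beta-catenin were all on the lower side, and the exception was the receptor gene fzd8b, low in either population at 5.31, 6.35 and 5.44 CPM in HE and 0.509, 1.26 and 2.53 CPM in ARE (difference 1.54 ± 0.37 SE, limma adjusted p = 0.00234).

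Retinoic acid genes were lower for 10 of 10 (median −1.72). Retinoic acid signals through nuclear receptors, of which rarga was at 1.73, 1.22 and 2.95 CPM in HE and 47.9, 25.8 and 46 CPM in ARE (difference −3.77 ± 0.33 SE, limma adjusted p = 5.02e-06) and the partner receptor gene rxraa at 0.618, 0.466 and 1.66 CPM in HE and 15.9, 14.1 and 25.4 CPM in ARE (difference −3.35 ± 0.35 SE, limma adjusted p = 1.36e-05). The enzyme gene cyp26c1, which breaks retinoic acid down, differed by −3.31. FGF and Ras genes were lower for 27 of 31 (median −1.38). The receptor genes fgfr4, at 1.73, 2.21 and 1.92 CPM in HE and 40.9, 35.5 and 50.8 CPM in ARE (difference −3.87 ± 0.26 SE, limma adjusted p = 1.05e-06), and fgfrl1b (−3.33) and the adhesion partner flrt3 (−3.47) led, and higher members were dusp12 (1.36), the intracellular fgf12b (1.32) and the kinase gene mapk7 (1.19). After median-ratio rescaling 6 members of this list were positive. Mesenchyme markers, at 55.4 to 90.2 CPM in HE against 1585 to 1916 in ARE, moved with the Wnt, retinoic acid and FGF lists, and their part was not tested.

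The list of peptide hormone and vasoactive peptide genes, which holds receptors, some of their ligands and processing enzymes, and adhesion or orphan receptors, was lower for 19 of 23 (median −2.10). aplnra, an apelin receptor, was at 9.89, 3.32 and 22.8 CPM in HE and 387, 371 and 630.3 CPM in ARE (difference −5.44 ± 0.49 SE, limma adjusted p = 5.62e-06), and gpr182, a receptor gene of vessels, was at 9.33, 5.13 and 25 CPM in HE and 293, 289.7 and 634 CPM in ARE (difference −5.0 ± 0.47 SE, limma adjusted p = 6.77e-06). In both, HE library 3 and ARE library 3 were the highest of their groups, as for the endothelial sum. The angiotensin receptor gene agtr2 differed by −3.97. Higher members were kng1, the kininogen from which bradykinin is cut, at 9.76, 4.9 and 9.43 CPM in HE and 0.291, 1.93 and 0.74 CPM in ARE (difference 2.22 ± 0.40 SE, limma adjusted p = 4.65e-04), the adhesion receptor gene adgrg1 (1.41) and the thrombin receptor gene f2r (0.98).

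Lipid mediator genes were divided. In this list 5 of 22 were higher and 17 lower (median −1.22). ptgs2a, the inducible cyclooxygenase that starts prostaglandin synthesis, was at 1.92, 3.15 and 2.28 CPM in HE and 50.8, 19.1 and 26.5 CPM in ARE (difference −3.17 ± 0.36 SE, limma adjusted p = 2.31e-05). ptgdsb, a prostaglandin D synthase of the lipocalin family, was at 51.1, 28.7 and 59.3 CPM in HE and 22.7, 4.15 and 5.68 CPM in ARE (difference 2.28 ± 0.50 SE, limma adjusted p = 0.00155), with ARE library 1 near the lowest HE library. Sphingosine phosphate receptor genes were lower, with s1pr1, which steadies vessel junctions, at 11.3, 6.41 and 16.3 CPM in HE and 60.3, 54 and 102 CPM in ARE (difference −2.59 ± 0.33 SE, limma adjusted p = 5.21e-05) and s1pr5a at −3.28. The lysophosphatidic acid receptor gene lpar5a stood higher at 296, 273 and 321 CPM in HE and 99.8, 103 and 91.1 CPM in ARE (difference 1.59 ± 0.12 SE, limma adjusted p = 2.86e-06), and enpp6, a choline phosphodiesterase, differed by 1.52.

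**Figure D4:**
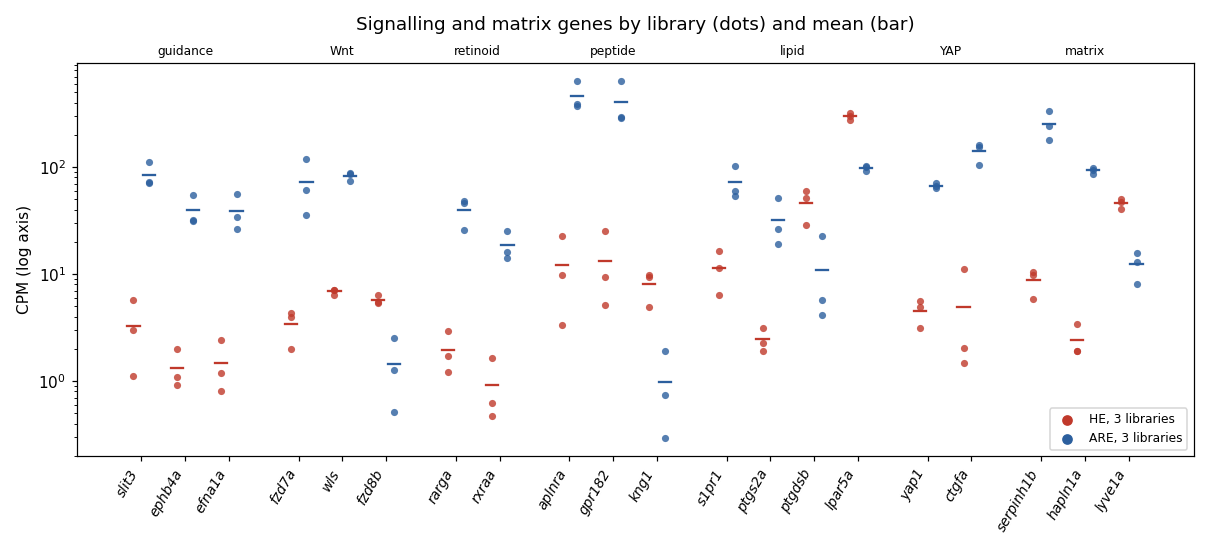
CPM (log axis) of signalling and matrix genes in each library (dots) with the group mean (bar), HE in red and ARE in blue. All HE values lie under all ARE values except for fzd8b, kng1, ptgdsb, lpar5a and lyve1a, where they lie above. Values without overlap were a condition for naming these genes.

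Insulin and growth hormone genes were divided. Of 28 listed members 13 were higher and 15 lower (median −1.08, but 0.81 among genes with a mean of at least 10 CPM). No ligand, surface receptor or IGF-binding protein was among the higher, a sorting made after the values were seen. Intracellular members were on both sides, with grb10a (−2.40) and sesn3 (−2.14), named after their values were seen, among the lower. igf2b, an insulin-like growth factor, was at 0.494, 1.81 and 3.78 CPM in HE and 70.6, 64.6 and 86 CPM in ARE (difference −4.77 ± 0.38 SE, limma adjusted p = 3.01e-06), and the growth hormone receptor gene ghrb (−3.19) and the binding protein gene igfbp7 (−2.60) were lower. Among the higher were prr5 (1.72), a partner of the kinase complex mTORC2, the lipid kinase gene pik3cd (1.45) and eif4ebp3, an inhibitor of cap-dependent translation, at 65.6, 40.3 and 45 CPM in HE and 20.9, 13.7 and 14.5 CPM in ARE (difference 1.55 ± 0.24 SE, limma adjusted p = 2.01e-04). Its relative eif4ebp1, chosen after its values were seen, was at 833, 693 and 731 CPM in HE and 296, 275 and 260.0 CPM in ARE (difference 1.44 ± 0.11 SE, limma adjusted p = 2.92e-06). The gene pik3cd is also a member of the haemogenic list, which includes genes that the study picked from these libraries.

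Cytokine receptor and JAK-STAT genes were lower for 12 of 17 (median −1.47). The decoy receptor gene il13ra2 was at 8.53, 6.29 and 12.9 CPM in HE and 106, 111 and 189 CPM in ARE (difference −3.74 ± 0.29 SE, limma adjusted p = 2.64e-06) and its relative il13ra1 at −2.85. Receptors of blood growth factors were divided. The thrombopoietin receptor gene mpl (2.76), the erythropoietin receptor gene epor (0.90) and stat5a (0.98), a transducer of both, were higher, and csf1ra and csf2rb (−1.47, named after its value was seen) were lower. Both mpl and irf1b, given next, are also members of the haemogenic list, which includes genes that the study picked from these libraries. NF-kappaB and TNF genes were lower for 16 of 20 (median −1.30), led by the receptor gene tnfrsf19 (−3.21), while irf1b, an interferon response factor gene, was higher at 87.9, 75.8 and 76 CPM in HE and 13, 5.24 and 4.57 CPM in ARE (difference 3.36 ± 0.32 SE, limma adjusted p = 8.15e-06). The macrophage genes csf1ra and irf8 belong to these lists, with differences of −3.35 and −3.16, and macrophage sums were 512 to 604 CPM in HE against 2988 to 3694 in ARE. Their part was not tested. Immediate brakes on growth from the Gadd45, Zfp36, Btg and Tob families were lower for 8 of 9 (median −1.56). zfp36l1a, which marks messenger RNA for decay, was at 81, 76.2 and 105 CPM in HE and 559, 453 and 736 CPM in ARE (difference −2.71 ± 0.19 SE, limma adjusted p = 1.38e-06), and gadd45ga (1.21) was the exception.

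Hippo and YAP genes were lower for 13 of 13 (median −2.05). YAP drives genes that respond to stretch and cell contact. yap1 was at 5.56, 3.15 and 4.92 CPM in HE and 70.2, 66.2 and 63.5 CPM in ARE (difference −3.63 ± 0.24 SE, limma adjusted p = 1.02e-06), a narrow spread in ARE. Its targets ctgfa, at 2.04, 1.46 and 11.1 CPM in HE and 153, 106 and 161 CPM in ARE (difference −4.95 ± 0.50 SE, limma adjusted p = 1.09e-05), and cyr61, at 1.79, 0.408 and 0.311 CPM in HE and 22.2, 21.7 and 31.1 CPM in ARE (difference −3.89 ± 0.35 SE, limma adjusted p = 6.23e-06), were also lower, with HE library 3 the highest of its group for ctgfa. Of this list 12 of 13 stayed negative after median-ratio rescaling. Mesenchyme markers (55.4 to 90.2 CPM in HE, 1585 to 1916 in ARE) and epidermal markers (203 to 461 and 2576 to 5261 CPM) moved with this list. Their part was not tested, and YAP activity was not measured.

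Cytoskeleton genes were lower for most listed members. Actin filament genes were lower for 46 of 51 (median −1.62). After median-ratio rescaling 16 of all 51 were positive and the median was −0.76. marcksl1b, which ties actin to the membrane, was at 44.7, 49 and 47.1 CPM in HE and 452, 452 and 566 CPM in ARE (difference −3.35 ± 0.14 SE, limma adjusted p = 4.83e-08). The bundling protein gene pls3 (−3.33) followed, and coro1b (1.22) and cyfip2 (1.14) were higher. Tubulin, motor and septin genes were lower for 28 of 33 (median −1.20), with sept9a (−2.96) lowest and stmn1a (1.04), which loosens microtubules, among the higher. After median-ratio rescaling 9 of these 33 were positive and the median was −0.45. Their summed levels overlapped between the groups, at 5518 to 5844 CPM in HE and 5783 to 5859 in ARE.

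Uptake and vesicle traffic genes were lower for 35 of 36 and 34 of 36 listed members (medians −1.36 and −1.28). dab2, an adaptor that loads receptors into clathrin pits, was at 24.8, 24.2 and 35.6 CPM in HE and 489.8, 450.0 and 944 CPM in ARE (difference −4.37 ± 0.26 SE, limma adjusted p = 6.48e-07), and ap1s3b, a small subunit of a clathrin adaptor, was at 2.72, 0.816 and 3.47 CPM in HE and 88, 64.3 and 146 CPM in ARE (difference −4.93 ± 0.39 SE, limma adjusted p = 2.78e-06). The scavenger receptor gene stab1 differed by −5.12 and the junctional Rab gene rab13 by −3.67. For Rab and vesicle genes the direction depended on the scaling, as 13 of 36 were positive after median-ratio rescaling. Among the 5 listed BLOC-1 subunits, which serve lysosome-related organelles, 5 were lower (median −1.01), and of the 5 COMMD proteins, which recycle receptors, 5 were lower (median −0.83) although 3 were positive after median-ratio rescaling.

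Listed genes of matrix and of its processing in the endoplasmic reticulum were mostly lower in HE. Collagen-modifying and folding genes were lower for 27 of 29 (median −1.97). The collagen chaperone gene serpinh1b was at 9.89, 5.89 and 10.5 CPM in HE and 336, 177 and 242 CPM in ARE (difference −4.68 ± 0.27 SE, limma adjusted p = 4.07e-07), and fkbp9, a prolyl isomerase, was at 5.87, 6.06 and 10.7 CPM in HE and 168, 159 and 224 CPM in ARE (difference −4.46 ± 0.24 SE, limma adjusted p = 3.74e-07). The secretory stress factor gene xbp1 was higher, at 2645, 2596 and 2312 CPM in HE and 1486, 1256 and 1232 CPM in ARE (difference 0.93 ± 0.11 SE, limma adjusted p = 2.59e-05). Glycosaminoglycan genes were lower for 26 of 27 (median −1.69). The hyaluronan link protein gene hapln1a was at 1.92, 3.44 and 1.92 CPM in HE and 94.7, 86.7 and 97.2 CPM in ARE (difference −4.80 ± 0.24 SE, limma adjusted p = 2.59e-07), and the proteoglycan genes vcanb and dcn differed by −4.47 and −4.43. The exception was lyve1a, a hyaluronan receptor known from lymphatic and venous endothelium, at 46.7, 40.2 and 50.4 CPM in HE and 15.8, 8.13 and 13 CPM in ARE (difference 1.85 ± 0.25 SE, limma adjusted p = 7.97e-05). Mesenchyme markers, 12 of 12 lower at 55.4 to 90.2 CPM in HE against 1585 to 1916 in ARE, moved with these lists, dcn being a member of both, and their part was not tested.

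Listed genes of surface and junction proteins were mostly lower as well. Tetraspanins, annexins and S100 proteins were lower for 25 of 26 (median −2.15). cd9b, a tetraspanin, was at 2.47, 0.175 and 0.984 CPM in HE and 72.3, 61.2 and 28.9 CPM in ARE (difference −4.68 ± 0.44 SE, limma adjusted p = 7.66e-06), and anxa2a, which binds membranes in a calcium-dependent way, was at 2.66, 1.17 and 0.104 CPM in HE and 36.9, 32.5 and 32.9 CPM in ARE (difference −4.09 ± 0.40 SE, limma adjusted p = 9.31e-06). Connexins, tight and adherens junctions were lower for 37 of 39 (median −2.19), with cx32.2, a gap junction channel, at 3.09, 1.11 and 4.51 CPM in HE and 51.6, 70.3 and 50.6 CPM in ARE (difference −4.0 ± 0.35 SE, limma adjusted p = 4.95e-06). Higher members were oclna, an occludin, at 44.1, 41 and 53.1 CPM in HE and 30.8, 7.22 and 11.2 CPM in ARE (difference 1.67 ± 0.41 SE, limma adjusted p = 0.0028), and cldng (1.30), a claudin. For oclna, ARE library 1 was several times the other ARE libraries. Epidermal markers, 19 of 19 lower at 203 to 461 CPM against 2576 to 5261, moved with the tetraspanin and annexin list and with the junction list. Those lists share members with the epidermal markers, whose part was not tested. Endothelial markers, at 194 to 417 CPM in HE against 2122 to 4217 in ARE, also moved with the junction list. The cadherin gene cdh5 is a member of both, and the part of endothelial markers was not tested. The added lists of APP family and gamma-secretase (7 of 7), Fraser complex (4 of 4) and calpain genes (5 of 5) were lower, with appb at −3.23, frem1b at −3.79 and capn2a at −3.10.

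Transcription factor families outside blood were mostly lower. Mesenchyme markers, at 55.4 to 90.2 CPM in HE against 1585 to 1916 in ARE, moved with these families, and their part was not tested. The T-box, Twist, Snail and Hand list, with other mesoderm factors, was lower for 12 of 13 (median −3.36), led by snai2, a factor of epithelial-to-mesenchymal change, at 0.432, 2.86 and 0.57 CPM in HE and 60.1, 68.7 and 63.7 CPM in ARE (difference −4.99 ± 0.37 SE, limma adjusted p = 2.06e-06). The exception pax5 (1.31), a B cell factor gene, was low in either population. Nuclear receptors were lower for 12 of 14 (median −2.08). nr2f1a was at 1.42, 0.758 and 1.04 CPM in HE and 28, 31.7 and 69.1 CPM in ARE (difference −4.30 ± 0.36 SE, limma adjusted p = 3.98e-06) and its relative nr2f2, a determinant of veins, at 1.61, 1.86 and 3.94 CPM in HE and 52.9, 45.9 and 97.5 CPM in ARE (difference −4.24 ± 0.35 SE, limma adjusted p = 3.59e-06). The paper reports nr2f2 as enriched only in kdrl-positive cells without Citrine, a gate not compared here. Like nr2f2, the venous Eph kinase genes ephb4a (−4.09) and ephb4b (−2.88) were higher in ARE. The paper uses ephb4b as a venous marker, and it was named here after its value was seen. In contrast, lyve1a (1.85), known from lymphatic and venous endothelium, was lower in ARE. The part of venous cells in the ARE gate was not tested. The oestrogen receptor gene esr1 was higher at 21.2, 30.7 and 17.8 CPM in HE and 2.47, 2.83 and 6.29 CPM in ARE (difference 2.37 ± 0.35 SE, limma adjusted p = 1.22e-04). Homeobox genes outside the Hox clusters were lower for 25 of 26 (median −1.38), the remaining gene missing the threshold, and forkhead factors for 6 of 6 (median −1.39), with foxd1 at −3.65. In the Kruppel-like family klf2a, a factor that responds to blood flow, was at 2.22, 3.32 and 7.15 CPM in HE and 26.5, 46.5 and 67.5 CPM in ARE (difference −3.21 ± 0.40 SE, limma adjusted p = 4.71e-05), and klf9 (1.75) and klf17 (0.82) were higher, klf17 being an erythrocyte marker here.

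Rows of 3 microRNA genes were listed. The reads come from libraries of long RNA, so they count precursor or overlapping transcripts and not the mature microRNA. mir126a, known from endothelium, where its host gene is egfl7, was at 0.0618, 0.175 and 1.09 CPM in HE and 5.67, 4.15 and 6.66 CPM in ARE (difference −2.22 ± 0.37 SE, limma adjusted p = 2.93e-04). mir142a, known from blood cells, was at 12.8, 8.16 and 11.8 CPM in HE and 3.56, 2.95 and 4.44 CPM in ARE (difference 1.35 ± 0.29 SE, limma adjusted p = 0.00144), and mir223, known from myeloid cells, was at 20.1, 23.3 and 22.6 CPM in HE and 14.1, 12.3 and 8.27 CPM in ARE (difference 0.90 ± 0.25 SE, limma adjusted p = 0.00539). The neutrophil marker mmp9 was also higher in HE and the macrophage markers lower, and their part was not tested. No values overlapped, as for 98.1% of all listed genes, but levels of mir126a were a few CPM at most. With 25000 tests assumed the adjusted p for mir223 was 0.0493.

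Outside the lists, the largest differences over all rows included genes of unlike function. cxcl12b, a chemokine, was at 1.67, 3.26 and 1.55 CPM in HE and 263, 199 and 290.3 CPM in ARE (difference −6.34 ± 0.25 SE, limma adjusted p = 4.83e-08), the largest negative difference in the table. The MAF family factor gene mafbb was at 11.1, 11 and 2.75 CPM in HE and 323, 563 and 596 CPM in ARE (difference −5.87 ± 0.41 SE, limma adjusted p = 1.61e-06), the matrix gene tnw (tenascin family) at −5.05 and the dioxin-inducible cytochrome gene cyp1a at −4.90. On the higher side, apart from the haemogenic list, dachb, a dachshund family factor gene, was at 93, 97.8 and 91.6 CPM in HE and 7.49, 4.88 and 6.54 CPM in ARE (difference 3.72 ± 0.21 SE, limma adjusted p = 3.94e-07), and vwf, which codes for the platelet-binding von Willebrand factor, was at 38.2, 36 and 34.6 CPM in HE and 2.98, 0.782 and 2.65 CPM in ARE (difference 3.65 ± 0.33 SE, limma adjusted p = 5.93e-06). The cytochrome oxidase subunit gene cox8b was at 54.4, 48.2 and 45.3 CPM in HE and 2.83, 5.3 and 2.96 CPM in ARE (difference 3.46 ± 0.26 SE, limma adjusted p = 2.51e-06), and blf, a zinc finger gene, was at 1214, 1161 and 1243 CPM in HE and 131, 143 and 117 CPM in ARE (difference 3.20 ± 0.11 SE, limma adjusted p = 2.98e-08). The protein kinase C gene prkcha (3.35), the adaptor gene skap1 (2.78), the macrophage-stimulating ligand gene mst1 (2.91) and b2m (2.48), the light chain of class I molecules, were also among the 15 largest. The other genes of these 15 include 5 clone genes without a functional name, and reads shared between copies of such genes could not be told apart.

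Genes with paired names mostly shared a direction. Of 108 pairs of gene names alike but for a final a or b, 96 were called in the same direction, 84 of them lower and 12 higher, and 12 (11.1%) in opposite directions, where 48.1% of all pairs of listed genes are opposite. The 48.1% rests on all listed genes, 40.2% of them higher, whereas most genes of these pairs were lower. It is therefore no matched baseline for the pairs. Pairs were matched by name only, so some are not duplicates of one another. Near-identical copies may share reads, so their values are uncertain. The pair with the largest gap codes for a myelin and epithelial membrane protein. pmp22a was at 8.34, 5.48 and 5.54 CPM in HE and 339, 240.2 and 276 CPM in ARE (difference −5.27 ± 0.21 SE, limma adjusted p = 4.83e-08) and pmp22b at 1119, 1079 and 1191 CPM in HE and 89.7, 70.7 and 98.8 CPM in ARE (difference 3.71 ± 0.14 SE, limma adjusted p = 3.95e-08). The HE libraries were the lower ones for the a copy and the higher ones for the b copy.

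Glutamine synthetase copies divided in the same way. glula was at 11.5, 14.4 and 29.5 CPM in HE and 504, 484 and 1014 CPM in ARE (difference −5.12 ± 0.35 SE, limma adjusted p = 1.24e-06), and glulb at 279, 236 and 283 CPM in HE and 163, 107 and 137 CPM in ARE (difference 0.98 ± 0.16 SE, limma adjusted p = 2.77e-04), with a much smaller difference. The creatine kinase copies ckba and ckbb differed by −2.90 and 0.68, the septin copies sept9a and sept9b by −2.96 and 0.64, and fam212aa and fam212ab by −2.51 and 2.18. In all 5 of these pairs the b copy was the higher in HE, and they are the 5 with the largest gaps among the 12. After median-ratio rescaling 20 of the 108 pairs were opposite.

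**Figure D5:**
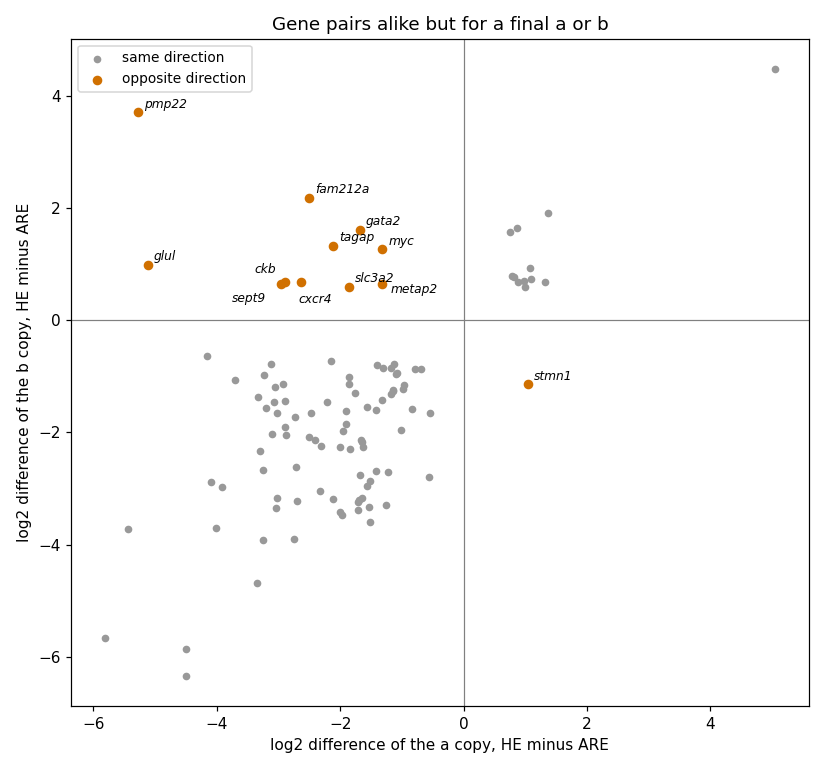
Log2 difference (HE minus ARE) of the a copy against that of the b copy for the 108 name-matched pairs with both genes listed. The 96 pairs of the same direction (grey) lie in the lower left and upper right, and the 12 opposite pairs (orange, named) in the others, 11 of them with the b copy higher in HE.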

How the data were processed

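RNA-seq reads of 3 HE and 3 ARE libraries were, per the labels and methods, trimmed with Trimmomatic 0.32, aligned with STAR to the zebrafish genome and counted with featureCounts by the authors. The deposited table holds the authors' CPM values per gene symbol, used here. It also holds the authors' fold change, mean level, likelihood ratio and p-value, none of which were used. Of the deposited FDR column, the authors' Benjamini-Hochberg value of that p-value, only the highest entry (0.0499) was read, to check that the table lists called genes only. Whether counting used strand is not given in the sources used here, and genes that overlap one another are uncertain. In 3 rows a date replaces the symbol, and these were not named. Symbols matched a RefSeq gene for 2717 of 2732 rows, 2707 of them protein-coding.

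Values were tested as log2(CPM + 1) with limma 3.58.1 in R 4.3.3 (two-sided, eBayes with trend, Benjamini-Hochberg over 2732 genes), without a filter, after a test on simulated data. The scale understates the change of low genes. The study describes the replicates as independent experiments on pooled clutches, with the gates sorted from the staged embryos. HE and ARE libraries of the same experiment may thus share a pool, and the reported fit sets no pairing. The p-values cover the spread between these 6 libraries. Lists were built from gene symbols, 30 wrong matches were removed by identity, and 8 of the 67 lists were added after the symbols were seen. These 8 hold RNA helicases, N-terminal processing, growth brakes, BLOC-1, COMMD, APP family and gamma-secretase, Fraser complex and calpain genes. The result of 1 list is not reported here. The members and lists were chosen with earlier results of these data known. Genes were named by a rule: per list up to 3 called genes with the largest difference each way and no overlap between groups, over all rows the 15 largest each way outside the marker lists, all microRNA rows, and the 5 opposite name-matched pairs with the largest gap. A search of promoters for motifs was not run, as no sequences were used here. Alternatives were pseudocounts of 0.5 and 5, a mean of at least 10 CPM, median-ratio and upper-quartile rescaling, a replicate block, no mean trend, array weights, 25000 tests, and leaving out each library.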

Additional observations from a re-analysis of the deposited data

How the results depend on the processing

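The count of genes called stayed between 2061 and 2729 in every alternative, with 1098 higher and 1627 lower in the reported fit. The 2061 came from genes with a mean of at least 10 CPM, a setting that tested fewer genes, so its counts hold removed genes as well as lost calls. The lower count was 1080 among genes with a mean of at least 10 CPM and 998 after median-ratio rescaling, where 1102 were higher, a shift of the balance towards higher calls that follows from the scale factors. With 25000 tests assumed, 896 were called higher and 1374 lower. Leaving out each library in turn gave 2631 to 2691 calls, 1052 to 1085 higher and 1575 to 1613 lower. Opposite name-matched gene pairs numbered 20 after median-ratio rescaling and 8 among genes with a mean of at least 10 CPM. Whether the replicate numbers pair the libraries is not given by the labels. Deviations from the group mean correlated at 0.0942, 0.183 and 0.267 for libraries of the same number, and every library correlated best with its own number, a hint from the data and not the design. With the number as a block 2729 genes were called, 1099 higher and 1630 lower.

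Median-ratio rescaling turned the medians of the glutathione list to 0.08, of the Myc network to 0.20 and of COMMD proteins to 0.00, and turned the genes commd2 (0.00), eif1b (0.25), smox (0.16) and suclg1 (0.16). Among genes with a mean of at least 10 CPM the medians were 0.70 for glutathione, 0.59 for lipid synthesis, 0.04 for the Myc network and 0.81 for insulin and growth hormone genes. Without ARE library 1 the medians of polyamine genes and of muscle markers were −0.01 and −0.10, the highest values on leaving out a library being 0.09 and 0.39. No other list median and no other of the 311 named genes changed direction under these alternatives; the cause of these changes was not tested. A call was lost in at least 1 alternative by 27 named genes. Depth limits genes of a few CPM, such as mir126a, and an unlisted gene has no value at all.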
